A study of Mus musculus with 6 samples.

Results

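The facilitative hexose transporters are the SLC2 family, which carries glucose and related sugars across membranes down their gradient. The 10 family genes described here were chosen by symbol, Slc2a10, Slc2a1, Slc2a3, Slc2a4, Slc2a5, Slc2a6, Slc2a8, Slc2a9, Slc2a12 and Slc2a13, and each matched 1 of the 35458 Ensembl gene identifiers in the files. Their values come from RNA-seq of CD8+ T cells taken from mouse spleen. The 3 control libraries carry the genotype Cd4cre and the 3 knockout (KO) libraries the genotype Cd4creGlut10fl/fl, so both groups hold the Cre transgene and only the KO group holds floxed alleles of Glut10, the protein name of Slc2a10. The Cd4 regulatory sequence of this transgene switches Cre on while T cells mature in the thymus, before the CD4 and CD8 lineages part. Age, sex, treatment, the floxed exon and the number of mice behind each library are not given in the labels. If libraries share mice, the p-values below measure technical spread only.

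SLC2 proteins differ in tissue, affinity and place in the cell. GLUT1 (Slc2a1) and GLUT3 (Slc2a3) sit at the surface of lymphocytes and feed glycolysis, and T cells raise GLUT1 when they are activated. GLUT10 belongs to the same class as GLUT6, GLUT8 and GLUT12, members of which are held inside the cell, and it is known for carrying dehydroascorbate, the oxidized form of vitamin C, as well as glucose.

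Values are FPKM, read fragments counted per kilobase of exon and divided by the size of the library, and so can be compared between genes. Low values fell on whole-read steps, from which the reads behind a value were computed. The totals implied were 11840600 to 15036300 fragments in the controls, 14683400 in KO 2 and only 3420290 and 3004540 in KO 1 and KO 3. All 14 T cell core markers were above 0 in every library, but their summed level was 597 and 515 FPKM in control 2 and 3 against 2181 in control 1 and 1810 to 3111 in the KO libraries. All 13 neutrophil markers were above 0 in every library as well, with a summed level of 16808 and 29410 FPKM in control 2 and 3, 444 in control 1 and 72.9 to 709 in the KO libraries. Of 795 olfactory and vomeronasal receptor genes, which belong to sensory neurons, 65.0% and 67.0% were above 0 in KO 1 and KO 3, and 22.5% to 43.6% were in the rest. Erythroid markers summed to 2217 and 1013 FPKM in control 2 and 3 and to 3.34 to 35.4 in the rest. Macrophage markers, all 12 above 0 in every library, summed to 203 FPKM in KO 2 and 959 to 2876 elsewhere. Libraries of both groups therefore stand apart, control 2 and 3 by neutrophil and erythroid markers, KO 1 and 3 by depth and by reads at sensory genes, and KO 2 by low macrophage markers. Values for Slc2a1, Slc2a3, Slc2a6 and the larger gene lists are also given with control 1 as the only control, and those for Slc2a1 and Slc2a6 with KO 2 as the only KO library. The part of these markers in the results was not tested, apart from a neutrophil covariate.

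Slc2a10, the targeted gene, was barely detected in the control cells and not detected in the KO cells. Control 1 gave 0.0946 FPKM and control 2 and 3 gave 0.0373 each, from 4, 2 and 2 reads, with 95% Poisson intervals of 0.0258 to 0.242, 0.00452 to 0.135 and 0.00451 to 0.135. It was listed at 0 in KO 1, KO 2 and KO 3, where 3 reads would have given 0.246, 0.0572 and 0.280 FPKM. KO 1 and KO 3 could therefore not have shown a level as low as that of the controls. KO 2, the only KO library of similar depth, has a limit below control 1 but above control 2 and 3. Pooled over the group, the controls held 1.91 reads per 10000000 fragments (95% Poisson interval 0.824 to 3.76), and the 0 reads of the KO group allow up to 1.42. That limit lies inside the control interval, and it exceeds the control value without control 1 (1.33 against 1.42) or without KO 2 (1.91 against 4.67). A difference in Slc2a10 was thus not detectable at this depth. Such intervals and floors cover counting error only. In control 1, Slc2a10 made up 0.177% of the summed FPKM of the 10 transporters, its highest share in any library.

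The promoter windows of Slc2a10 and of Slc2a1 and Slc2a6, the pair of abundant transporters that lay lower in every KO library, are shown to let the targeted gene be compared with them. They run from 250 bases before to 50 bases after the annotated start, from RefSeq on GRCm38.p6, which matched 8 of the 10 members by symbol (not Slc2a3 or Slc2a4). Capitals mark exact matches, on either strand, to 3 short motifs that are spelled out after the sequences, and no match overlaps another.
Slc2a10, chr2:165503647-165503946, + strand: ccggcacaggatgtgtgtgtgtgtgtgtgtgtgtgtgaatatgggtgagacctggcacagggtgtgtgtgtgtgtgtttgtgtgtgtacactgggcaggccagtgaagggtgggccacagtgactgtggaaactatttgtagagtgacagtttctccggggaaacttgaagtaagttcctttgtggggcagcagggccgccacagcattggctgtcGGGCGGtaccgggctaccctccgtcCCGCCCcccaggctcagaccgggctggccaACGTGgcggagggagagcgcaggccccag
Slc2a1, chr4:119108495-119108794, + strand: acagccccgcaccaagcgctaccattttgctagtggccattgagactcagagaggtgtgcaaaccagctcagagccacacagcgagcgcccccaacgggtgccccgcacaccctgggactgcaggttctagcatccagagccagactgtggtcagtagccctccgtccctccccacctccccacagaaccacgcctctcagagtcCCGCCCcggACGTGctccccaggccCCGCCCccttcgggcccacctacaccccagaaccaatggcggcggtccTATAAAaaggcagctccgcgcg
Slc2a6, chr2:27027949-27028248, - strand: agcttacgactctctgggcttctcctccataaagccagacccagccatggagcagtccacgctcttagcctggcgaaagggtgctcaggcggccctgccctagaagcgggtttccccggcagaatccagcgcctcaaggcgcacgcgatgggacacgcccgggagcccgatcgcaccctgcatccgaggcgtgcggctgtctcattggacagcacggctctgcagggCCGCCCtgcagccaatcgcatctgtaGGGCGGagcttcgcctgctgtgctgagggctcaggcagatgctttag
The GC box GGGCGG stands 2 times in all 3 windows and at least 1 time in 35.7% of the 32851 promoter windows of the same length. The core of the hypoxia response element, ACGTG, is held by 19.6% of windows, and by those of Slc2a10, where it begins 21 bases past the start, and of Slc2a1, where it begins at -36. The Slc2a6 window does not hold it. The TATA box TATAAA is held by 13.6% of windows and, among these 3, by that of Slc2a1, where it begins 28 bases past the annotated start. These are matches of letters and say nothing of which factors bind.

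Of the 10 transporters, 5 reached 1 FPKM in at least 3 libraries and were tested among 13956 genes. Slc2a1, Slc2a3 and Slc2a6 were the abundant ones, at 71.7% to 91.8% of the family's summed FPKM in every library, followed by Slc2a8 and Slc2a9. With limma, 0 of the 5 passed an adjusted p of 0.05, as did 0% of all genes tested, and limma-voom on the implied reads also called 0. At an unadjusted limma p under 0.05 there were 2 members, both lower in the KO cells, against 6.46% of all genes lower and 5.33% higher. Without control 1, 363 genes passed limma and without KO 2, 1821, and in both cases 0 of them were transporters. Estimates were lower for 3 members and higher for 2, with a median log2 difference of -0.85 on the log2(FPKM + 1) scale, where the median over all tested genes was 0.10. The median of the members was -0.43 without control 3, -0.28 with control 1 as the only control and -0.26 with the neutrophil covariate, beside 0.05, -0.06 and -0.07 over all tested genes. The limma adjusted p of the 5 members ran from 0.417 to 0.713. As these are bulk samples, fewer cells of a type and less RNA per cell cannot be told apart.

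**Figure D1:**
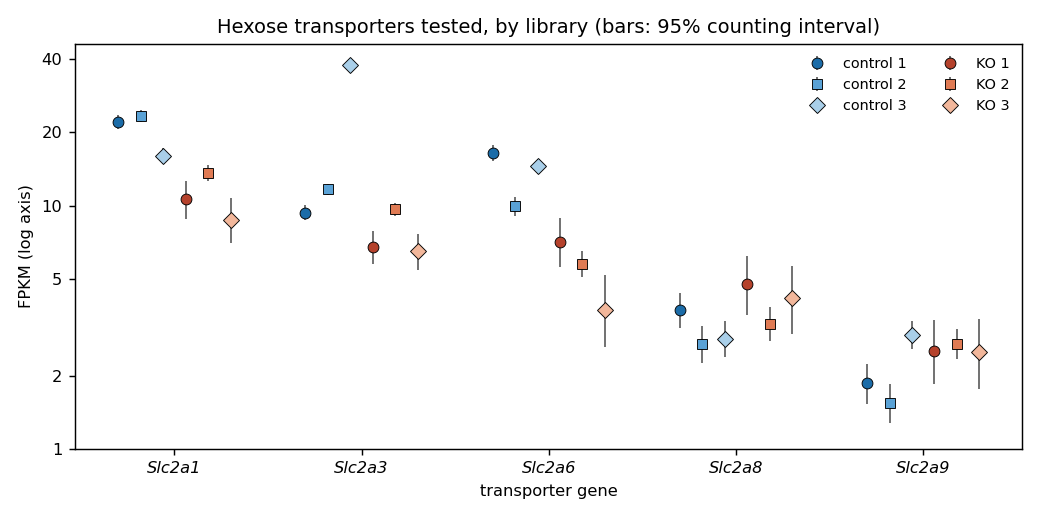
FPKM (log axis) of the 5 tested transporters in each library, with blue symbols for the 3 control and red symbols for the 3 KO libraries and bars for the 95% Poisson counting interval. For Slc2a1 and Slc2a6 every KO library lies below every control, while Slc2a3 is set apart by control 3 at 37.7 FPKM.

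Slc2a1, the main surface glucose transporter of activated T cells, stood at 22.0, 23.4 and 16.0 FPKM in control 1 to 3. The KO libraries 1 to 3 gave 10.6, 13.6 and 8.73. Every KO library lay below every control, and the counting intervals of the nearest pair, 15.0 to 17.2 in control 3 and 12.6 to 14.7 in KO 2, did not meet. The KO mean was 0.536 times the control mean, with a log2 difference of -0.85 (SE 0.26, 95% interval -1.48 to -0.21) and a limma adjusted p of 0.417. Control 1, low in neutrophil markers, and control 2, high in them, gave Slc2a1 levels 1.33 FPKM apart. Control 3, where these markers were highest, gave the lowest control value. Control 2 and 3 also had lower T cell core markers than control 1. The part of these marker differences in Slc2a1 was not tested, apart from the neutrophil covariate. With control 1 as the only control the log2 difference was -0.96, and with KO 2 as the only KO library it was -0.54. With the neutrophil covariate it was -1.15.

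Slc2a6 encodes GLUT6, a transporter of intracellular membranes that is found in spleen and leukocytes. Its level was 16.5, 9.95 and 14.5 FPKM in control 1 to 3, and KO 1 to 3 gave 7.10, 5.75 and 3.73. Again every KO library lay below every control. The highest control value was in control 1, where neutrophil markers were lowest and T cell core markers highest among the controls. The KO mean was 0.405 times the control mean, with a log2 difference of -1.17 (SE 0.32, 95% interval -1.94 to -0.40) and a limma adjusted p of 0.417. The log2 difference was -1.45 with control 1 alone, -1.09 with KO 2 alone and -1.49 with the neutrophil covariate. Slc2a1 and Slc2a6 were thus 2 of 5 tested members with every KO library below every control, a pattern met by 9.44% of all tested genes. None lay above, against 6.70%, so 2 of 5 did not overlap in either direction, against 16.1%. As the groups do not overlap, leaving out any single library could not change the sign of either estimate.

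Slc2a3 encodes GLUT3, a high-affinity glucose transporter of neurons and leukocytes. Control 1 to 3 gave 9.34, 11.6 and 37.7 FPKM, and KO 1 to 3 gave 6.74, 9.64 and 6.48. Control 3, which also had the highest neutrophil markers, lay far above the other 5 libraries, and KO 2 lay above control 1, so the groups overlapped. The log2 difference was -1.01 (SE 0.53, 95% interval -2.28 to 0.25, limma adjusted p = 0.421). It was -0.43 without control 3, -0.28 with control 1 as the only control and -0.26 with the mean of the neutrophil markers as a covariate. Control 2 came next to control 3 in neutrophil markers and had a Slc2a3 level close to that of control 1. A processed pseudogene, Gm4482, lies inside the span of Slc2a3 on the same strand, with 1 to 38 reads per library against 141 to 4110 for Slc2a3.

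**Figure D2:**
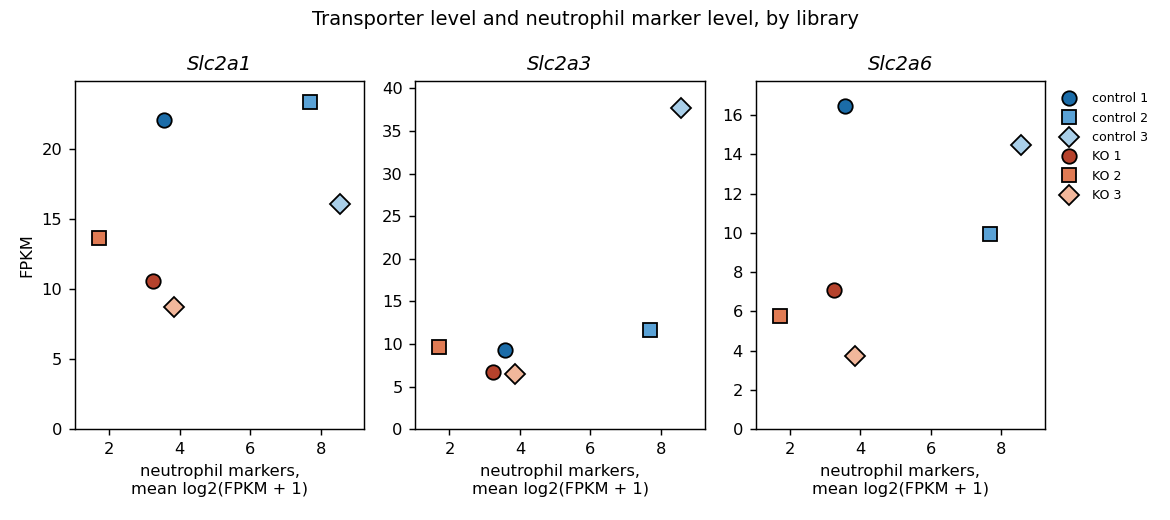
FPKM of Slc2a1, Slc2a3 and Slc2a6 against the mean log2(FPKM + 1) of 13 neutrophil markers, 1 point per library, blue for control and red for KO. Control 1 lies at 3.56 on the marker axis, beside KO 1 at 3.25 and KO 3 at 3.85, and above both for Slc2a1 and Slc2a6.

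Slc2a8 encodes GLUT8, a transporter held in endosomes and lysosomes. Its FPKM was 3.71, 2.70 and 2.84 in control 1 to 3, with 4.74, 3.27 and 4.15 in KO 1 to 3. Its groups overlapped, since control 1 lay above KO 2. The log2 difference was 0.31 (SE 0.28, 95% interval -0.37 to 0.98, limma adjusted p = 0.592), and quantile normalization turned it to -0.33. Slc2a9 encodes GLUT9, best known as a carrier of urate. Control 1 to 3 held 1.86, 1.55 and 2.94 FPKM, while KO 1 to 3 held 2.53, 2.71 and 2.49, so that the KO values were close together inside the range reached by the controls. Its log2 difference was 0.22 (SE 0.29, 95% interval -0.48 to 0.93, limma adjusted p = 0.713), and -0.47 after quantile normalization, which moved the median of all tested genes from 0.10 to -0.29. With 38 to 44 reads in KO 1 and KO 3, the counting intervals of Slc2a9 there, 1.84 to 3.398 and 1.76 to 3.42, span most of the control range.

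**Figure D3:**
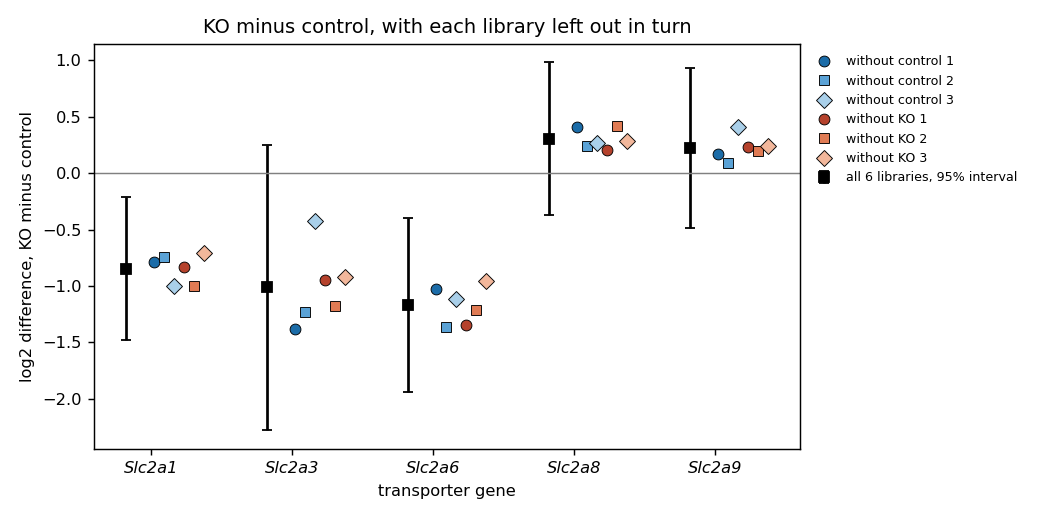
Log2 difference, KO minus control, of log2(FPKM + 1) for the 5 tested transporters, as black squares with the 95% limma interval for all 6 libraries and as coloured symbols with each library left out in turn. The intervals of Slc2a1 and Slc2a6 lie below 0 before adjustment over all genes, and Slc2a3 moves from -1.01 to -0.43 without control 3.

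The order of the levels differed between libraries. Slc2a1 was highest in 5 libraries and Slc2a3 in control 3. Slc2a6 stood next to Slc2a1 in control 1 and KO 1, after both Slc2a1 and Slc2a3 in control 2, control 3 and KO 2, and also behind Slc2a8 in KO 3, where the counting intervals of Slc2a6 (2.61 to 5.17 FPKM) and Slc2a8 (2.96 to 5.65) overlapped. In the controls Slc2a1 (20.5 ± 3.903 FPKM, SD, n = 3), Slc2a3 (19.6 ± 15.8) and Slc2a6 (13.6 ± 3.34) were not apart beyond their spread between libraries, and neither were Slc2a8 (3.08 ± 0.549) and Slc2a9 (2.12 ± 0.733), whose ranges met. Within each library, however, Slc2a1 lay above Slc2a6, from 1.11 times its level in control 3 to 2.37 times in KO 2. In the KO libraries the order of means was Slc2a1 (10.99 ± 2.48), Slc2a3 (7.62 ± 1.75), Slc2a6 (5.53 ± 1.70), Slc2a8 (4.05 ± 0.740) and Slc2a9 (2.58 ± 0.116). The range of Slc2a3 overlapped those of Slc2a1 and Slc2a6, which did not overlap each other. Slc2a8 overlapped Slc2a6 but not Slc2a9.

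The summed FPKM of the 10 transporters was lower in every KO library than in any control, and Slc2a8 and Slc2a9 held larger shares of it there. The sum was 53.5, 49.4 and 74.3 FPKM in control 1 to 3 but 32.7, 35.1 and 26.4 in KO 1 to 3, so the groups did not overlap. The places of control 1, which was low in neutrophil markers, and of KO 2, the deepest KO library, follow from this and are no further check. A two-sided exact permutation test gave p = 0.1, the smallest that 3 against 3 libraries can give, and 0.2 after adjustment over the 10 quantities compared in this way. Of the sum, Slc2a8 held 6.93%, 5.47% and 3.82% in control 1 to 3, then 14.5%, 9.32% and 15.7% in KO 1 to 3. Slc2a9 held 3.48%, 3.13% and 3.96% in the controls and 7.73%, 7.72% and 9.42% in the KO libraries. Neither share overlapped between the groups (exact permutation p = 0.1 each, adjusted 0.2), although the FPKM of both genes did. Without overlap, control 1 had to lie below every KO library and KO 2 above every control, so this is no further check. A share is taken within a library and does not depend on how libraries are scaled, but a larger share of 1 member can reflect lower levels of the others. The sensory receptor genes averaged 0.999 and 1.06 FPKM in KO 1 and KO 3, and 0.0188 in KO 2. What such reads add to the shares of Slc2a8 and Slc2a9 was not tested.

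Among the abundant members the makeup was not shown to differ. Slc2a1 held 36.7% ± 13.5 of the sum in the controls and 34.8% ± 3.58 in the KO libraries (SD, n = 3 each, exact permutation p = 0.9). Slc2a3 held 30.6% ± 17.7 and 24.2% ± 3.45 (n = 3 each, exact permutation p = 0.9), and Slc2a6 23.5% ± 6.33 and 17.4% ± 3.89 (n = 3 each, exact permutation p = 0.3). The share of Slc2a3 was 50.8% in control 3 and 17.4% to 27.5% in the other 5 libraries, and that of Slc2a1 was 21.6% in control 3 and 32.4% to 47.4% elsewhere. The ratio of Slc2a1 to Slc2a3 was 2.36, 2.01 and 0.425 in control 1 to 3, with 1.57, 1.42 and 1.35 in KO 1 to 3. Control 3 was thus the one library in which GLUT3 message exceeded GLUT1 message per length.

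**Figure D4:**
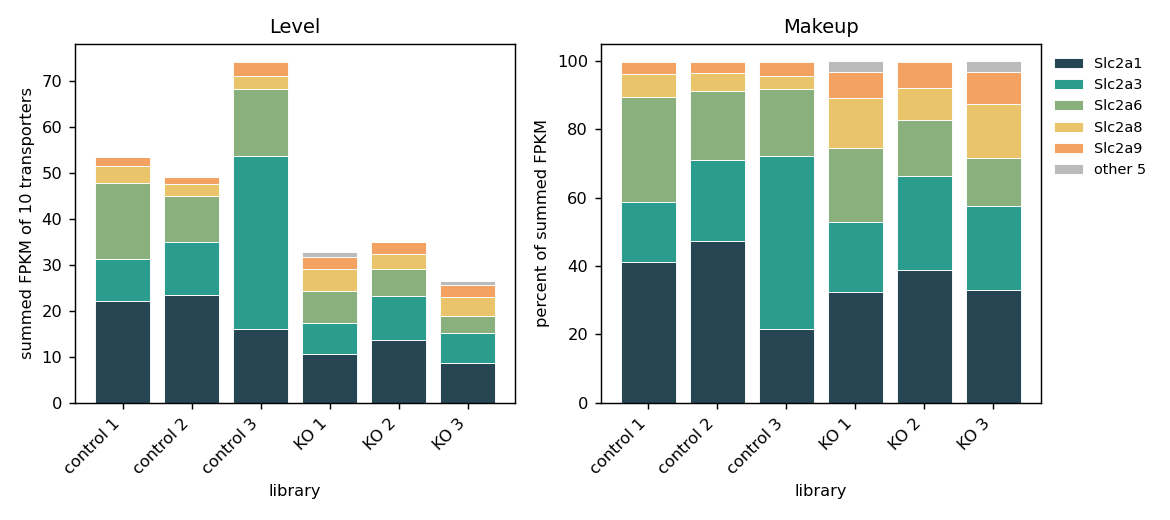
Summed FPKM of the 10 transporters (left) and the percent of that sum held by each (right) per library, where "other 5" joins the members below the filter. The KO bars, 26.4 to 35.1 FPKM, are all shorter than the control bars, and the segments of Slc2a8 and Slc2a9 take a larger share in each KO library than in any control.

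The other 4 transporters, with Slc2a10, stayed under 1 FPKM in all libraries, at most 0.676, and were not tested. Slc2a4 encodes GLUT4, the insulin-responsive transporter of muscle and fat, and had 0, 1 and 3 reads in control 1 to 3, then 0, 1 and 0 in KO 1 to 3. Slc2a5 encodes GLUT5, a fructose transporter, and had 0, 2 and 7 reads in the controls and 7, 2 and 0 in the KO libraries. Slc2a12, the gene of GLUT12, had reads in KO 3 only, 2 in number, and its end overlaps Tbpl1 on the opposite strand, which measured 11.98 to 20.5 FPKM. How the authors counted strand is not given in the sources used here. At these depths no difference in Slc2a4, Slc2a5 or Slc2a12 was detectable.

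Slc2a13 encodes HMIT, a proton-linked carrier of myo-inositol known from brain. Control 1 to 3 gave 0.0101, 0.0398 and 0.0636 FPKM, from 1, 5 and 8 reads. KO 1 to 3 gave 0.419, 0.0163 and 0.676, from 12, 2 and 17 reads. KO 1 and KO 3 were high and KO 2 lay within the control range. KO 1 and KO 3 are also the libraries with reads at the most sensory receptor genes, whose mean level was 0.999 and 1.06 FPKM there and 0.0188 to 0.0803 elsewhere, and the part of such reads in the Slc2a13 values was not tested. Slc2a7, a family gene outside the 10, was likewise highest in KO 1 and KO 3, with 1.25 and 2.67 FPKM there and at most 0.226 elsewhere. Slc2a2, the liver and islet glucose transporter, had 0 to 2 reads per library.

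**Figure D5:**
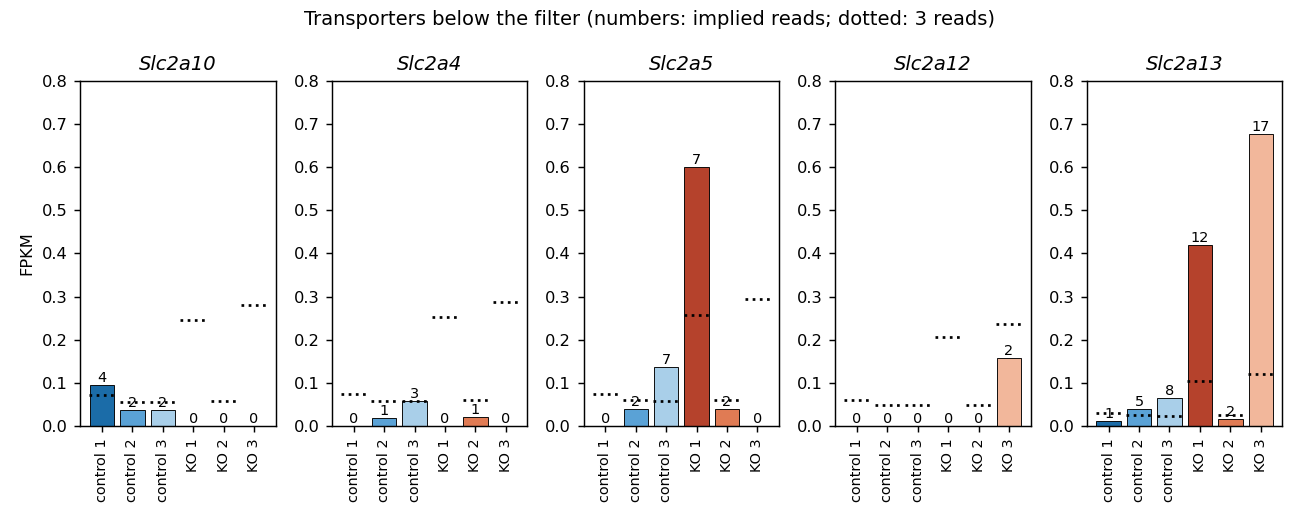
FPKM of the 5 transporters below the filter in each library (bars, with the implied reads printed above) and the level that 3 reads would give in that library (dotted lines). Slc2a10 is at 0 in all KO libraries, where the dotted line of KO 1 and KO 3 lies above every control bar, and Slc2a13 is high in KO 1 and KO 3 only.

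The genes whose pattern over the 6 libraries was nearest to a transporter were found by the root mean square difference of log2(FPKM + 1), each gene centred on its own mean, among 10520 protein-coding genes. Nearest to Slc2a1 were Tor3a (0.0706), H2-DMb1 (0.112) and Calr (0.121), where the median gene stood at 0.5995. Nearest to Slc2a3 were Cpne3 (0.144), Pag1 (0.170) and Nin (0.221), with a median of 0.897. Slc2a6 came nearest to Slc23a2 (0.171), Ppard (0.193) and Plxna1 (0.195), with a median of 0.744. Within the family, Slc2a6 ranked 1330 among the genes nearest to Slc2a1 (0.394) and Slc2a3 ranked 7480 (0.755). In the other direction, Slc2a1 ranked 250 among the genes nearest to Slc2a6 and 2929 among those nearest to Slc2a3.

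Slc23a2 encodes the sodium-linked transporter of ascorbate, the reduced form of the vitamin whose oxidized form GLUT10 carries. Its level was 8.65, 6.72 and 10.8 FPKM in control 1 to 3, and KO 1 to 3 gave 4.52, 4.42 and 2.22, so that every KO library lay below every control (log2 difference -1.06, SE 0.34, limma adjusted p = 0.417). As Slc23a2 is the gene nearest in pattern to Slc2a6 over the same libraries, this order is no separate finding. Of 9 tested genes that handle ascorbate and dehydroascorbate, 0 passed, 8 had lower estimates and 4 lay wholly below the controls, where 9.44% of all tested genes did, with a median of -0.83. Glrx, a glutaredoxin that can reduce dehydroascorbate, stood at 11.6, 21.4 and 25.1 FPKM in control 1 to 3, with KO 1 to 3 at 5.11, 8.44 and 7.03. P4hb, the disulfide isomerase that is also a prolyl hydroxylase subunit, measured 259 ± 78.0 and 142 ± 19.7 FPKM (SD, n = 3 each). With control 1 as the only control, 5 of the 9 genes had every KO library below it, where 27.0% of all tested genes did, and the list median was -0.31, beside -0.06 over all tested genes.

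The other genes of sugar entry are given by lists. Of 19 tested genes that move transporters between membranes, 0 passed limma, 12 had lower and 7 higher estimates, and 11 lay wholly below the controls, against 9.44% of all tested genes, with a median of -0.61. With control 1 as the only control, 13 of the 19 had every KO library below it, where 27.0% of all tested genes did. The list median was then -0.28, beside -0.06 over all tested genes. KO 2 lay below every control for 12, where 29.1% of all tested genes did, and also for 12 of 12 tested neutrophil and 11 of 11 tested macrophage markers. Myo1c, a motor of vesicle delivery, averaged 19.6 ± 4.49 FPKM in control and 9.41 ± 4.31 in KO libraries, Vps26a, a subunit of retromer, which recycles GLUT1 to the surface, 61.0 ± 20.8 and 30.2 ± 5.08, and the sorting receptor Sort1 23.3 ± 20.4 and 3.62 ± 2.10 (SD, n = 3 each). For Sort1, control 1 stood at 6.48 FPKM, while control 2 and 3, where neutrophil markers were high, gave 17.5 and 46.04. Vps26a likewise gave 37.1 in control 1 and 72.0 and 74.0 in control 2 and 3, with KO 1 to 3 at 32.8, 24.4 and 33.5. Myo1c differed less between the controls, at 16.4, 17.8 and 24.8. Txnip, which lowers glucose uptake by removing GLUT1 from the surface, measured 80.5 ± 62.7 and 151 ± 28.3 FPKM (limma adjusted p = 0.417), with overlapping groups. Arrdc4, of the same list, went the other way and lay wholly below the controls, at 7.63 ± 2.70 and 3.22 ± 2.12 FPKM (limma adjusted p = 0.417). Both genes were chosen after their values were seen.

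Of 7 tested sugar kinases, which trap hexoses after entry, 0 passed limma, 5 had lower estimates and 3, Hk3, Hk2 and Adpgk, lay wholly below the controls, where 9.44% of all tested genes did. Galk2, a galactokinase family member named after its values were seen, lay wholly above them at 7.78 ± 0.745 FPKM in control and 10.3 ± 1.30 in KO libraries (SD, n = 3 each), where 6.70% of all tested genes did. The median of the kinases was -0.35, and -0.31 with control 1 as the only control, beside -0.06 over all tested genes. For 3 of the 7 every KO library lay below control 1, where 27.0% of all tested genes did. Hk3 stood at 23.5, 95.54 and 117.8 FPKM in control 1 to 3, with KO 1 to 3 at 9.85, 11.36 and 16.99. Hk2 gave 6.52, 14.03 and 21.99 in the controls, and 2.45, 4.997 and 3.35 in the KO libraries. Adpgk gave 5.97, 9.62 and 30.4 in the controls, and 4.81, 3.98 and 3.84 in the KO libraries. All 3 genes were lowest among the controls in control 1, where neutrophil markers were lowest, and highest in control 3, as was Slc2a3. The part of these markers in the 3 genes was not tested, apart from the neutrophil covariate. Of 13 tested regulators of transporter transcription and insulin signalling, 0 passed limma, 9 had lower estimates and 2, Mlx and Akt1, lay wholly below the controls, where 9.44% of all tested genes did. Their median was -0.12, and -0.41 with control 1 as the only control, beside -0.06 over all tested genes. Every KO library lay below control 1 for 8 of the 13, where 27.0% of all tested genes did. Hif1a, the hypoxia factor that drives Slc2a1, gave 22.5, 53.6 and 35.5 FPKM in control 1 to 3, while KO 1 to 3 gave 13.5, 27.7 and 8.69, so that KO 2 lay above control 1. Of 11 sodium-linked and other sugar carriers 3 were tested and 0 passed. Slc5a3, the sodium-linked carrier of myo-inositol, lay wholly above the controls, as did 6.70% of all tested genes, at 1.35, 1.18 and 1.38 FPKM in control 1 to 3 but 5.89, 1.76 and 6.95 in KO 1 to 3, with KO 2 nearest to the controls.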

How the data were processed

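The authors deposited 1 table per library with 35458 Ensembl gene identifiers. Its values were read as FPKM from the values themselves, since the labels state no unit for the authors' values. Bowtie2 2.2.3, HTSeq 0.6.0, HISAT2 version 2 and the mm8 build are named, without roles, in the submitters' processing notes. Strand and annotation are not given in the sources used here. Symbols, gene types, exon lengths and gene positions came from GENCODE M21, which matched 35358 identifiers.

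Multiplied by exon length, 92.1% to 93.4% of values under 200 reads lay within 0.02 read of a whole number. Implied reads are FPKM times length over that step and are approximate. Whether KO 1 and 3 were scaled by another factor cannot be told apart from a lower depth.

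The plan named limma for normalized values. In R 4.3.3, limma 3.58.1 with a variance trend was fitted to log2(FPKM + 1) of genes that reached 1 FPKM in 3 or more libraries, with no term besides group, with Benjamini-Hochberg adjustment over 13956 genes at 0.05. The fit was tested on simulated data. Named genes were all members, Slc2a2 and Slc2a7, up to 3 tested genes of smallest p per pathway list, the 3 nearest genes in pattern for Slc2a1, Slc2a3 and Slc2a6, and the most abundant markers, not all of which are printed. The members and lists were chosen with earlier results of these data known. Of 13 ascorbate genes 12 were matched. Python 3.11.15 was used with scipy 1.17.1, pandas 2.3.3, numpy 2.4.6 and matplotlib 3.10.9.

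Alternatives were a pseudocount of 0.1, quantile normalization, no filter, a replicate block, a neutrophil covariate, protein-coding genes only, limma-voom on implied reads, each library left out, and 1 control or 1 KO library alone. Of these, only quantile normalization over the tested genes alone was added after the values were seen.

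Other marker lists gave these medians of the log2 difference: T cell core 1.21, neutrophil -3.87, macrophage -0.45, B cell 0.97, erythroid -4.21, platelet -0.01, dendritic cell 0.36 and T cell activation -0.16, with 0 genes past the threshold in each.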

Additional observations from a re-analysis of the deposited data

How the results depend on the processing

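No transporter passed the limma threshold under any of the 16 alternatives run. Slc2a1, Slc2a3 and Slc2a6 stayed lower in all 16, at -1.15 to -0.54, -1.43 to -0.26 and -1.65 to -0.96. For Slc2a1 and Slc2a6, whose groups do not overlap, leaving out libraries could not turn the sign. The lowest limma adjusted p was 0.0773 for Slc2a1, 0.220 for Slc2a3 and 0.0867 for Slc2a6. Slc2a8 and Slc2a9 turned from 0.31 and 0.22 to -0.33 and -0.47 after quantile normalization over all genes, and to -0.019 and -0.074 over the tested genes, which moved the median of all tested genes from 0.10 to -0.29 and -0.12. The count of genes past the limma threshold was 0, with 1646 at an unadjusted p under 0.05 (1396 with limma-voom), and 0 to 1821 with 1 library left out: 363 without control 1, 1821 without KO 2 and 0 without any other. The count of transporters stayed at 0 to 0 there. The difference in the share of Slc2a1, -1.94 percentage points, ran from -9.50 to 3.39 with 1 library left out, and was positive without control 1 (0.293) or control 2 (3.39). That of Slc2a3, -6.40 points, ran from -12.98 to 3.68 and was positive without control 3 (3.68). With 1 library left in a group, that library is assumed to vary like the other group.

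The r of deviations across genes between same-numbered libraries was 0.112, 0.0202 and 0.0175 for numbers 1, 2 and 3. Other pairs of a control and a KO library ran from -0.207 to 0.139. With 3 libraries per group, such values cannot decide whether the numbers pair the libraries. With the replicate block 0 genes and 0 transporters passed limma, and the limma adjusted p was 0.390 for Slc2a1 and Slc2a6. The shares, -1.94 and -6.40 points, each had an exact p of 1 in the paired test. KO 1 and KO 3 limit what can be seen of the scarce transporters, at 0.0819 and 0.0932 FPKM per read of Slc2a10.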
